A study of Mus musculus with 6 samples.

Results

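The genes described here are 45 mouse genes of sugar metabolism and of the response to low oxygen, out of 55401 genes listed in the deposited count table. They were chosen by gene symbol, from a list of glucose transporters, glycolytic enzymes, enzymes and transporters that decide the fate of pyruvate and lactate, pentose phosphate enzymes, oxygen sensors and targets of the hypoxia-inducible factor HIF-1. The choice was made with earlier results of these data known. The 45 symbols matched 46 identifiers, because Aldoa stands in the table under a pair of them. The study exposed wild-type mouse macrophages to neutrophil extracellular traps (NETs), chromatin fibres studded with granule proteins that neutrophils cast out, and set them against macrophages without NETs. There were 3 NETs-treated and 3 control RNA-seq libraries, both groups wild type and differing in the labels by treatment alone. The cell type is labelled BMDM, for macrophages grown from bone marrow, but each title begins with BV2, the name of an immortalised mouse microglial line, and the 2 names cannot be reconciled from these sources. The dose, the duration of exposure, the origin of the NETs, the age and sex of any donor animal and the independence of the 3 samples of a group were not stated in these labels. The p-values therefore cover the spread among these libraries alone, and that spread may be technical.

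Glycolysis splits glucose into pyruvate in the cytosol, first spending ATP to phosphorylate and cleave the sugar and then recovering ATP and NADH from the triose phosphates. The pentose phosphate pathway branches off at glucose 6-phosphate and supplies NADPH and ribose, which macrophages use for the oxidative burst, for glutathione reduction and for nucleotide synthesis. HIF-1 is a transcription factor whose alpha subunit is hydroxylated by prolyl hydroxylases and degraded when oxygen is plentiful. When it is stable, in hypoxia or in inflammatory activation of macrophages, it raises the transcription of most glycolytic genes, of Pdk1, and of targets outside glycolysis such as Bnip3, Ankrd37 and Egln3.

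Total counts ran from 39994613 to 43686531 in the NETs-treated libraries and from 41830940 to 44274445 in the control libraries, and 15272 genes had enough counts to be tested. CPM below are counts scaled to library size (TMM); means are given ± SD and log2 fold changes ± SE, with n = 3 in each group throughout, and 3 CPM values in a row are replicates 1, 2 and 3. A gene was called at an adjusted p under 0.05 in the quasi-likelihood test of edgeR, adjusted by Benjamini and Hochberg's method over the 15272 genes, to which every adjusted p below refers. The NETs-treated libraries departed from their group mean along transcript GC content, by 0.14 log2 units per 10 GC points in replicate 1 and by -0.13 in replicate 3 (0.07 to -0.04 in the control libraries), and the members are GC-rich, with a median of 53.1% against 49.7% over all tested genes. Of 11 macrophage markers none was at 0, 9 fell and 2, Cd14 and Lyz2, rose. Their summed level ran from 10607 to 10983 CPM in NETs-treated and from 6133 to 6331 CPM in control libraries. The higher sum came from Cd14, with 5379, 5407 and 5539.5 CPM with NETs, against 688, 698 and 687 CPM in the controls, and from Lyz2, while Csf1r, for one, fell (log2 fold change -1.03 ± 0.07), and Cd68, the next most abundant marker, fell too (log2 fold change -0.39 ± 0.11). Among microglia markers Sall1 was at 0 in every library, and Trem2 had 85.5, 90.8 and 89.0 CPM in NETs-treated cells and 193, 186 and 191 CPM in control cells. Tmem119, another of them, was higher at the low level of 5.04 ± 0.459 CPM in NETs-treated cells and 1.44 ± 0.562 CPM in control cells (log2 fold change 1.80 ± 0.30, adjusted p = 0.00115). Of 15 neutrophil markers 7 were at 0 in every library, among them Ly6g, S100a9 and Mpo. The rest summed to between 149.7 and 172 CPM in NETs-treated and between 43.4 and 47.4 CPM in control libraries. Of 6 tested, Lcn2 and S100a8 rose, and Lcn2 made up most of the sum, while Csf3r, Prtn3 and Cxcr2, at low levels in both groups, fell. Dendritic cell markers, led by Itgax, summed to between 59.7 and 60.2 CPM in NETs-treated and between 152 and 160 CPM in control libraries. Markers of T cells, B cells, fibroblasts and erythroid cells summed to at most 1.58 CPM a list in NETs-treated and 12.8 CPM in control libraries. The part of these marker shifts in the values below was not tested. In bulk RNA, fewer cells of a kind and less RNA per cell cannot be told apart.

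Sugar metabolism and hypoxia genes were lower more often than higher in NETs-treated cells, and the largest differences lay among the falls. Of the 45 genes, 42 could be tested, 22 of them fell (52.4%), 6 rose (14.3%) and 14 did not pass the test. The genes were chosen with earlier results of these data known. The part of that choice in the shares given here was not tested. Over all tested genes 27.2% fell and 25.5% rose (52.7% in either direction). Over the 9162 genes that averaged 10 CPM or more, the level that 39 of the 42 members reached, 30.9% fell and 33.4% rose (64.3% in either direction). With a correction for transcript GC content the member counts became 19 lower and 11 higher, so that 36.7% of the called members were higher, against 21.4% without it. The correction removes every trend along GC content, including one between the groups, whatever its source. At a change of at least 2-fold, 8 members fell and 0 rose, where 11.9% of all tested genes fell and 7.39% rose by as much (8.43% and 5.57% of those averaging 10 CPM or more). The groups did not overlap in 30 of the 42 members (71.4%), as in 62.4% of all tested genes and 71.1% of those averaging 10 CPM or more. The median log2 fold change of the 42 was -0.34, within a range from -2.10 for Ankrd37 to 0.69 for Hk1, against -0.02 over all tested genes and 0.03 over those averaging 10 CPM or more. The 3 members that could not be tested, Eno2, Ldhb and Pdk2, had no read in any library, which limits each to 0.0240 CPM over the NETs-treated and 0.0234 CPM over the control group (3 counts per group, counting error only). The 37 mitochondrial genes in the table were at 0 as well, and whether any of these zeros reflects the reference or the counting behind the table was not tested, so the limits hold for the counts as deposited and not for expression.

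**Figure D1:**
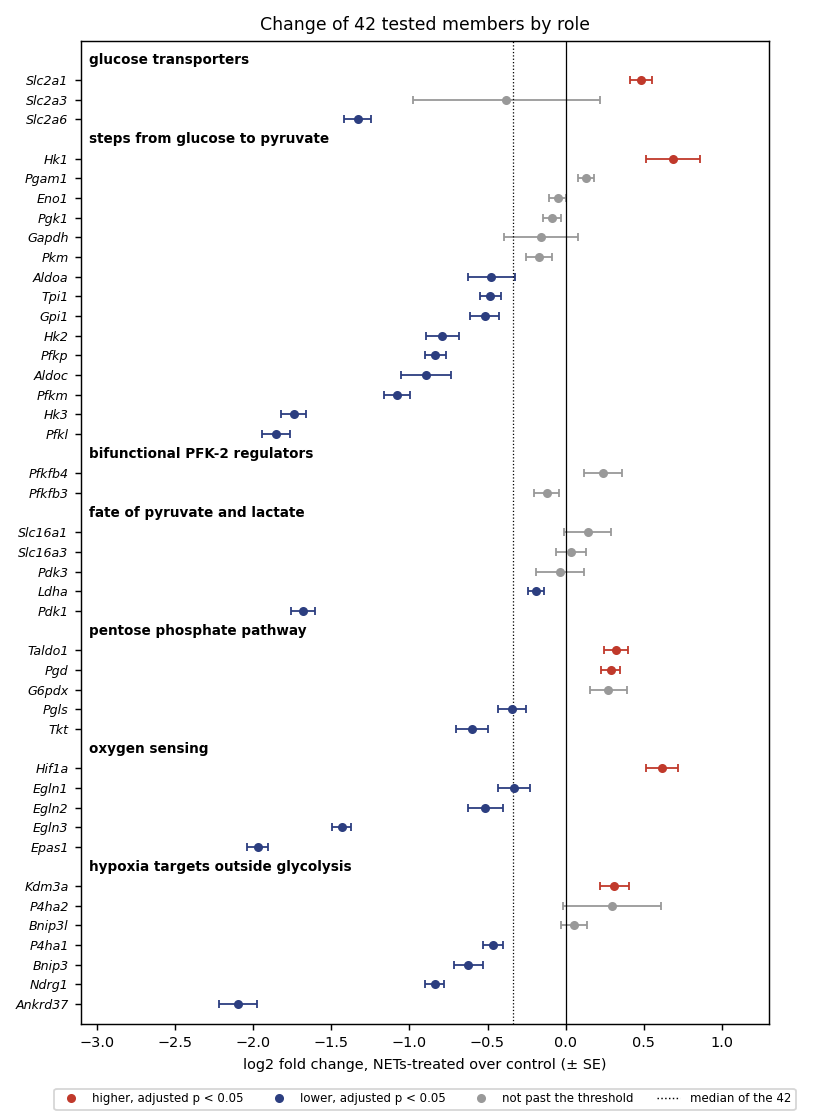
Log2 fold change of NETs-treated over control cells (x axis) for the 42 tested members, ordered by role and by size of change down the page. Points are edgeR estimates and bars are 1 SE. Red marks the 6 members called higher, blue the 22 called lower, grey the 14 not past the threshold, and the dotted line the median of -0.34.

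Glucose enters cells through transporters of the Slc2a family, and of the 3 Slc2a genes described here 1 rose, 1 fell and 1 did not pass the test. Slc2a1 encodes GLUT1, the main glucose carrier of activated macrophages. It had 418, 437 and 489 CPM after NETs and 323, 326 and 313 CPM without them. All 3 NETs-treated libraries lay above the control libraries, a rise of 1.40-fold (log2 fold change 0.48 ± 0.07, adjusted p = 0.000621). Slc2a6 (ENSMUSG00000036067.12, chr2:27021363-27027998, minus strand), which encodes GLUT6, a lysosomal member of the family in macrophages, had 31.0, 29.1 and 26.0 CPM with NETs, against 71.7, 73.4 and 71.7 CPM in the controls. The groups were far apart and each was tight, and Slc2a6 fell 2.52-fold (log2 fold change -1.33 ± 0.08, adjusted p = 5.46e-06). Slc2a3, which encodes the high-affinity carrier GLUT3, was close to the limit of detection. Its level was 1.20 ± 0.733 CPM in NETs-treated cells and 1.56 ± 0.936 CPM in control cells (SD, n = 3 each), with overlapping groups (adjusted p = 0.624). Counted per kilobase of transcript, Slc2a1 made up 90.9% ± 1.25 of the reads of these 3 genes in NETs-treated and 74.2% ± 0.314 in control libraries (SD, n = 3 each). Other genes of the family, such as Slc2a8 and Slc2a9, were left out of that share.

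Hexokinases trap glucose in the cell as glucose 6-phosphate, and their 3 genes did not move together. Hk1 (ENSMUSG00000037012.18, chr10:62268855-62379908, minus strand), the isozyme of most tissues, had 289, 224 and 169 CPM in NETs-treated cells and 151, 144 and 129 CPM in control cells. Every NETs-treated library was above every control library, although the NETs-treated values were widely spread, and Hk1 rose 1.61-fold (log2 fold change 0.69 ± 0.17, adjusted p = 0.00915). Hk2 (ENSMUSG00000000628.10, chr6:82725025-82774454, minus strand), the inducible isozyme and a classical HIF-1 target, had 71.7, 61.8 and 54.5 CPM after NETs and 113, 106 and 105 CPM without them. It fell 1.73-fold, with no overlap (log2 fold change -0.79 ± 0.10, adjusted p = 0.000308). Hk3 (ENSMUSG00000025877.14, chr13:55005985-55021385, minus strand), the isozyme of myeloid cells, had 207, 192 and 228 CPM with NETs, against 748, 678 and 671 CPM in the controls. Its groups stood far apart, a fall of 3.34-fold (log2 fold change -1.74 ± 0.08, adjusted p = 1.22e-06).

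Set against each other per kilobase, the hexokinase transcripts were made up differently in the 2 groups. Hk3 accounted for 44.4, 48.4 and 59.0% of hexokinase reads per kilobase in the NETs-treated libraries, against 80.6, 79.9 and 80.9% in the control libraries. Hk1 accounted for 46.6, 42.5 and 32.8% in the NETs-treated libraries, against 12.2, 12.7 and 11.7% in the control libraries. Hk3 thus held the greater part in each control library, and Hk1 and Hk3 were nearer to equal in NETs-treated libraries, with Hk1 ahead in replicate 1. Hk2 was the smallest share in both, at 8.76% ± 0.474 in NETs-treated and 7.28% ± 0.144 in control libraries (SD, n = 3 each). With 3 libraries a group, an exact two-sided permutation test cannot go below p = 0.1, the value all 3 shares reached (adjusted p = 0.12 over 12 shares tested in all isozyme families).

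Phosphofructokinase commits fructose 6-phosphate to glycolysis and is its main control point, and all 3 of its subunit genes fell. Pfkl (ENSMUSG00000020277.10, chr10:77986947-78010083, minus strand), the liver-type subunit that is also abundant in phagocytes, had 34.6, 32.7 and 32.7 CPM in NETs-treated cells and 134, 114 and 113 CPM in control cells. No NETs-treated library came near the control range, a fall of 3.61-fold (log2 fold change -1.85 ± 0.09, adjusted p = 1.38e-06). Pfkm (ENSMUSG00000033065.14, chr15:98092589-98132451, plus strand), the muscle-type subunit, had 24.7, 25.0 and 24.2 CPM after NETs and 56.0, 50.7 and 49.6 CPM without them. The values within each group were close together, and Pfkm fell 2.11-fold (log2 fold change -1.08 ± 0.08, adjusted p = 1.43e-05). Pfkp (ENSMUSG00000021196.14, chr13:6579768-6648777, minus strand), the platelet-type subunit, had 304, 273 and 267 CPM with NETs, against 509, 487 and 509.8 CPM in the controls. It fell by less, 1.78-fold, and also without overlap (log2 fold change -0.83 ± 0.07, adjusted p = 2.17e-05). Pfkp was the largest share of phosphofructokinase reads per kilobase, at 79.5% ± 0.789 in NETs-treated and 70.6% ± 1.63 in control libraries. Pfkl made up 10.5% ± 0.270 in NETs-treated and 18.8% ± 1.24 in control libraries (SD, n = 3 each; exact two-sided permutation p = 0.1 for both, the smallest possible). The exons of Pfkp overlap 748 bases of Pitrm1 on the opposite strand, a gene with 221 CPM in NETs-treated and 265 CPM in control cells, and the strand setting of the counting was not stated.

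The enzyme that makes the allosteric activator of phosphofructokinase, fructose 2,6-bisphosphate, is encoded by the bifunctional Pfkfb genes, and neither member passed the test. Pfkfb3, the form with high kinase activity that HIF-1 induces, averaged 49.1 ± 3.50 CPM in NETs-treated cells and 53.5 ± 2.13 CPM in control cells (adjusted p = 0.238). Pfkfb4 averaged 26.4 ± 1.07 CPM in NETs-treated cells and 22.4 ± 3.29 CPM in control cells (adjusted p = 0.132); with the GC correction it passed, at a log2 fold change of 0.40.

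**Figure D2:**
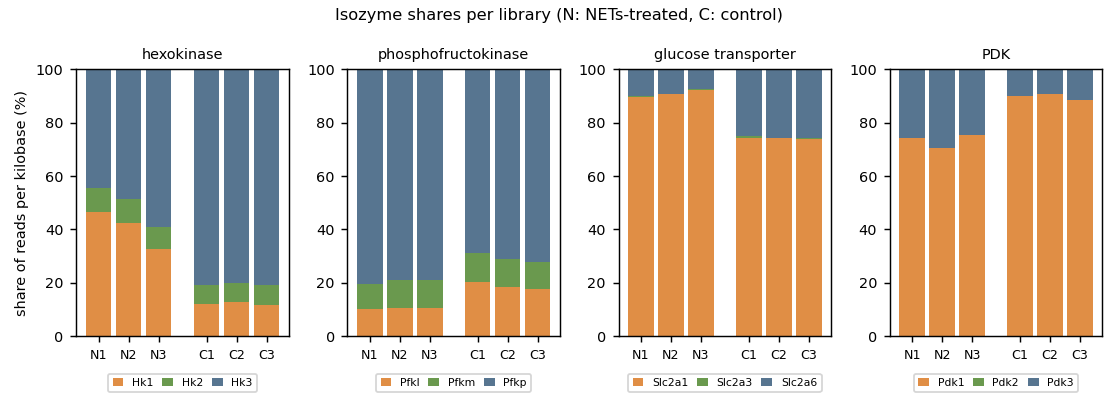
Share of each isozyme (y axis, percent of the family's reads per kilobase of transcript) in each library for hexokinase, phosphofructokinase, the glucose transporters and the pyruvate dehydrogenase kinases (PDK), NETs-treated libraries left and control libraries right. Hk3 makes up 44.4 to 59.0% of hexokinase in NETs-treated and 79.9 to 80.9% in control libraries, and Slc2a1, Pfkp and Pdk3 take larger shares in every NETs-treated than in any control library.

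The other genes up to triose phosphate isomerase also fell. Gpi1, which converts glucose 6-phosphate to fructose 6-phosphate, averaged 753 ± 98.2 CPM in NETs-treated cells and 1079 ± 23.0 CPM in control cells (log2 fold change -0.52 ± 0.09, adjusted p = 0.00154). Aldolase cleaves fructose 1,6-bisphosphate into the 2 triose phosphates, and Aldoa, its abundant form, had 1907, 1542 and 1180.4 CPM in NETs-treated cells and 2272, 2065 and 2095 CPM in control cells. Its NETs-treated libraries spread widely and still lay below the control libraries (log2 fold change -0.47 ± 0.15, adjusted p = 0.0249), a call lost when any 1 control library or NETs-treated replicate 2 was left out, and without the filter on low counts (adjusted p between 0.0523 and 0.0844). Aldoc (ENSMUSG00000017390.15, chr11:78322968-78327781, plus strand), the brain-type aldolase, had 73.1, 59.1 and 43.8 CPM after NETs and 114, 105 and 108 CPM without them. Its groups were apart, a fall of 1.86-fold (log2 fold change -0.89 ± 0.16, adjusted p = 0.00180), and per kilobase Aldoa made up 97.9% of aldolase reads in NETs-treated and 97.3% in control libraries. Tpi1, which interconverts the triose phosphates, averaged 375 ± 27.3 CPM in NETs-treated cells and 523 ± 11.4 CPM in control cells (log2 fold change -0.48 ± 0.07, adjusted p = 0.000461).

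From glyceraldehyde 3-phosphate onwards, in the steps that recover ATP and NADH, none of the 5 tested genes passed on its own identifier. Gapdh, which oxidises glyceraldehyde 3-phosphate, had 22.3, 19.8 and 16.2 CPM with NETs, against 17.0, 30.7 and 17.4 CPM in the controls in its own identifier. Those low, overlapping values (log2 fold change -0.16 ± 0.24, adjusted p = 0.600) hold no more than 0.963% of the reads on Gapdh and its 76 near-identical copies, so its own level cannot be read from them. Summed over the gene and its copies the level was 3014, 2514 and 1960.3 CPM with NETs, against 3247, 3192 and 3182 CPM in the controls. The 3 NETs-treated sums lay below the control sums and differed widely from each other (log2 fold change -0.36 ± 0.13, adjusted p = 0.0442), and with the GC correction the sum did not pass. Pgk1, which makes the first ATP of this phase, averaged 1769.6 ± 92.6 CPM in NETs-treated cells and 1878 ± 62.8 CPM in control cells (adjusted p = 0.241). Pgam1, the phosphoglycerate mutase, averaged 1117 ± 31.1 CPM in NETs-treated cells and 1021 ± 31.1 CPM in control cells (adjusted p = 0.0706), without overlap, and with the GC correction it passed as higher, at a log2 fold change of 0.24. Eno1, the enolase of these cells, averaged 2525 ± 137 CPM in NETs-treated cells and 2615 ± 18.5 CPM in control cells (adjusted p = 0.457), and between 86.3% and 87.0% of the reads on it and its copies lay on its own identifier. The sign of Eno1 turned with the GC correction, to a log2 fold change of 0.14 (adjusted p = 0.0269). Pkm, which makes pyruvate, averaged 2195 ± 265 CPM in NETs-treated cells and 2470.2 ± 77.2 CPM in control cells (adjusted p = 0.118), and without NETs-treated replicate 1 it passed as lower, at -0.25.

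**Figure D3:**
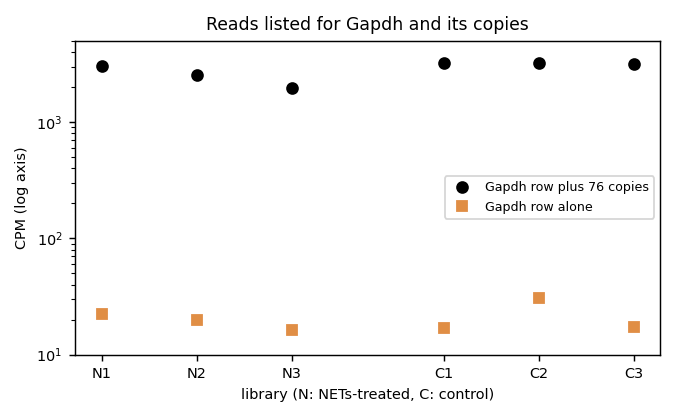
Level of the Gapdh identifier alone and of Gapdh summed with its 76 near-identical copies (CPM, y axis, log scale) in each NETs-treated and control library. On the identifier the groups overlap, whereas the sums run from 1960.3 to 3014 CPM in NETs-treated and from 3182 to 3247 CPM in control libraries.

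Taken by position in the pathway, 9 of the 10 tested genes from hexokinase to triose phosphate isomerase fell and 1, Hk1, rose (median log2 fold change -0.81). Tested genes averaging 10 CPM or more fell in 30.9% and rose in 33.4% of cases. Of the 5 tested genes from Gapdh to pyruvate kinase 0 passed in either direction on their own identifiers (edgeR, and 0 also by the Wald test of DESeq2), with a median of -0.09. At an unadjusted p under 0.05 (edgeR) 1, Pgam1, passed. The count and median include the Gapdh identifier, which holds no more than 0.963% of the reads on Gapdh and its copies. Calls among these 5 did appear under other settings, as lower for Pgk1 and Pkm with scaling by library size and for Pkm without NETs-treated replicate 1, and as higher for Pgam1 and Eno1 with the GC correction and for Pgam1 without NETs-treated replicate 1 or with a filter at 1 CPM. The sum of Gapdh and its copies passed as lower. This division was made after the values were seen and carries no test, and copies of Gapdh and Eno1 take part of the reads of the second stretch.

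Pyruvate is reduced to lactate, exported, or passed to mitochondria, and the gene that restrains the last route fell most. Pdk1 (ENSMUSG00000006494.11, chr2:71873224-71903858, plus strand), the kinase that inactivates pyruvate dehydrogenase and a direct HIF-1 target, had 63.6, 59.5 and 69.1 CPM in NETs-treated cells and 202, 204 and 210.4 CPM in control cells. Its groups were tight and far apart, a fall of 3.21-fold (log2 fold change -1.68 ± 0.08, adjusted p = 1.00e-06). Pdk3, another such kinase, averaged 9.47 ± 0.638 CPM in NETs-treated cells and 9.71 ± 1.45 CPM in control cells (adjusted p = 0.855). Pdk1 held 73.3% ± 2.54 of their reads per kilobase in NETs-treated and 89.6% ± 1.19 in control libraries (SD, n = 3 each). Ldha, which reduces pyruvate to lactate, averaged 1236 ± 55.2 CPM in NETs-treated cells and 1410.1 ± 25.2 CPM in control cells (log2 fold change -0.19 ± 0.05, adjusted p = 0.0172), with at least 99.9% of the reads of the gene and its copies on its own identifier. That small fall passed in the fit above but not with the GC correction, nor without any 1 control library or NETs-treated replicate 2 (adjusted p up to 0.140). Neither lactate exporter passed the test. Slc16a1, which encodes MCT1, averaged 84.4 ± 19.1 CPM in NETs-treated cells and 76.6 ± 3.67 CPM in control cells (adjusted p = 0.463), and without NETs-treated replicate 1 it passed as higher, at a log2 fold change of 0.33 (adjusted p = 0.0107). Slc16a3, which encodes the HIF-induced MCT4, averaged 141 ± 12.2 CPM in NETs-treated cells and 137 ± 14.0 CPM in control cells (adjusted p = 0.780), and with the GC correction it passed as higher, at 0.22 (adjusted p = 0.0142).

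Of the 5 pentose phosphate enzymes 2 rose, 2 fell and 1 did not pass the test. Of the oxidative enzymes, which make NADPH, G6pdx, the entry enzyme, had 226, 190.5 and 160.1 CPM after NETs and 169, 154 and 154 CPM without them. Its groups overlapped, and it missed the threshold (log2 fold change 0.27 ± 0.12, adjusted p = 0.0828), although it passed as higher in 7 of 16 alternatives. Pgls, the lactonase that follows, averaged 109 ± 12.7 CPM in NETs-treated cells and 138 ± 1.74 CPM in control cells (log2 fold change -0.34 ± 0.09, adjusted p = 0.0118), and with the GC correction its log2 fold change was -0.02. Pgd, the second NADPH-producing enzyme, averaged 326 ± 12.7 CPM in NETs-treated cells and 267 ± 9.65 CPM in control cells (log2 fold change 0.29 ± 0.06, adjusted p = 0.00456). In the non-oxidative branch, which exchanges carbon with glycolysis, Taldo1 averaged 175 ± 10.6 CPM in NETs-treated cells and 140.5 ± 9.13 CPM in control cells (log2 fold change 0.32 ± 0.08, adjusted p = 0.00780). Tkt (ENSMUSG00000021957.7, chr14:30548359-30574720, plus strand), the transketolase, had 354, 318 and 259.9 CPM with NETs, against 479, 471 and 461 CPM in the controls. Its groups did not overlap, and it fell 1.51-fold while transaldolase rose (log2 fold change -0.60 ± 0.10, adjusted p = 0.00147). The median log2 fold change of the 5 enzymes was 0.27, and 0.16 without NETs-treated replicate 1.

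**Figure D4:**
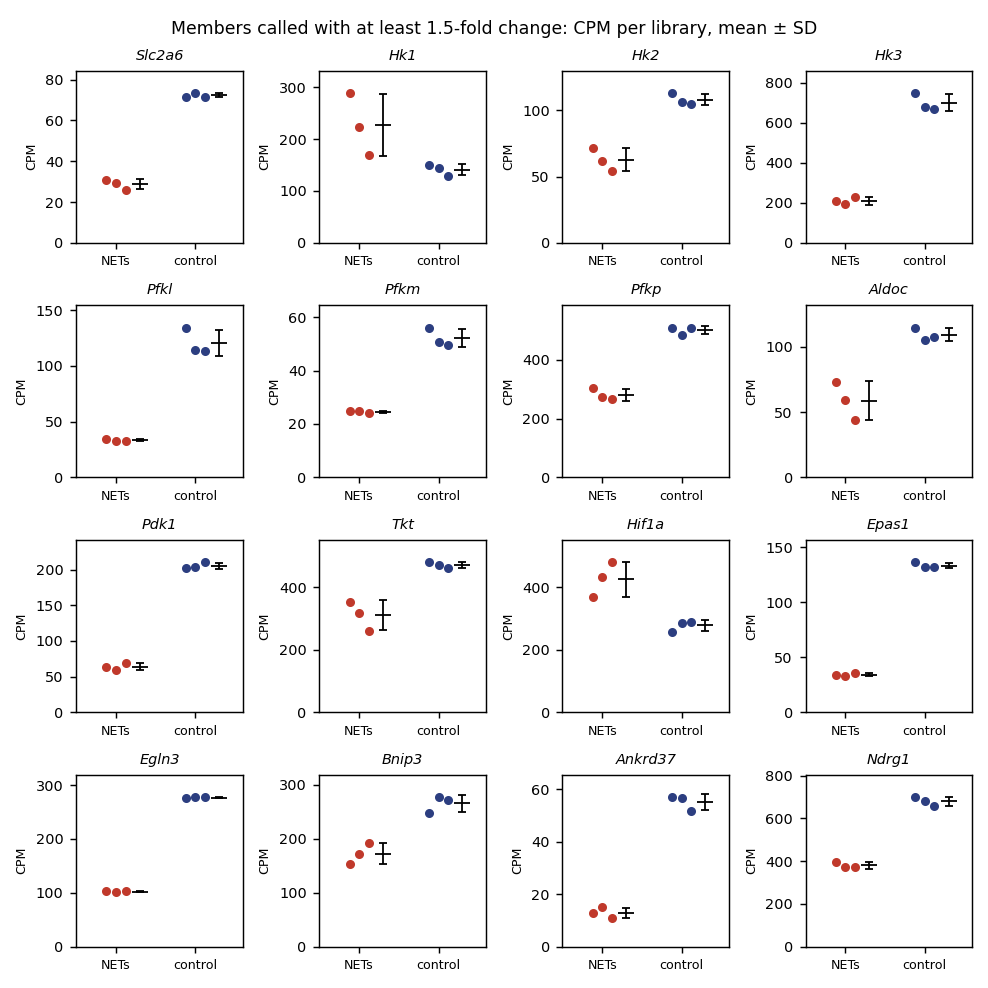
CPM (y axis, linear, from 0) in each of the 3 NETs-treated and 3 control libraries for the 16 members called with a change of at least 1.5-fold, with mean ± SD beside the points. Hk1 and Hif1a are higher and the other 14 lower in every NETs-treated library than in any control library.

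The oxygen sensing genes moved in opposite directions. Hif1a (ENSMUSG00000021109.13, chr12:73901375-73947530, plus strand), which encodes the regulated subunit of HIF-1, had 367, 431 and 479.5 CPM in NETs-treated cells and 257, 287 and 290.2 CPM in control cells. All NETs-treated libraries were above the control libraries, a rise of 1.53-fold (log2 fold change 0.62 ± 0.10, adjusted p = 0.00107). Epas1 (ENSMUSG00000024140.10, chr17:86753700-86833410, plus strand), which encodes HIF-2 alpha, had 33.7, 33.1 and 35.4 CPM after NETs and 136, 132 and 132 CPM without them. Its levels varied little within a group and differed 3.92-fold between them, lower in NETs-treated cells (log2 fold change -1.97 ± 0.07, adjusted p = 3.40e-07). The prolyl hydroxylases that mark both subunits for degradation all fell. Egln3 (ENSMUSG00000035105.5, chr12:54178981-54203860, minus strand), the HIF-inducible one, had 103, 101 and 103 CPM with NETs, against 275, 278 and 278 CPM in the controls. It fell 2.70-fold, with nearly equal values within each group (log2 fold change -1.43 ± 0.06, adjusted p = 6.09e-07). Egln2 averaged 16.8 ± 1.68 CPM in NETs-treated cells and 24.0 ± 1.27 CPM in control cells (log2 fold change -0.51 ± 0.11, adjusted p = 0.00445). Egln1, the main hydroxylase in most cells, averaged 63.5 ± 7.16 CPM in NETs-treated cells and 79.9 ± 6.68 CPM in control cells (log2 fold change -0.33 ± 0.10, adjusted p = 0.0255), a call lost with the GC correction and without control replicate 1 or 3 (adjusted p from 0.0621 to 0.0997). In total 4 of the 5 fell and 1 rose, where 30.9% of tested genes averaging 10 CPM or more fell and 33.4% rose.

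Targets of hypoxia outside glycolysis included the largest fall of the 42. Ankrd37 (ENSMUSG00000050914.16, chr8:45996902-46005707, minus strand), a small ankyrin repeat gene induced by HIF-1, had 12.7, 14.9 and 10.9 CPM in NETs-treated cells and 57.0, 56.8 and 51.6 CPM in control cells. The groups were far apart, a fall of 4.28-fold (log2 fold change -2.10 ± 0.12, adjusted p = 3.64e-06); 22.7% of its exon bases lie opposite Lrp2bp, which had 0.675 CPM in NETs-treated and 1.05 CPM in control cells. Ndrg1 (ENSMUSG00000005125.13, chr15:66929318-66969640, minus strand), a stress-responsive gene of the N-myc downstream regulated family, had 397, 371 and 372 CPM after NETs and 699, 682 and 658 CPM without them. It fell 1.79-fold without overlap (log2 fold change -0.84 ± 0.06, adjusted p = 9.53e-06). Bnip3 (ENSMUSG00000078566.8, chr7:138890836-138909519, minus strand), which encodes a mitophagy receptor, had 153, 172 and 192 CPM with NETs, against 247, 277 and 272 CPM in the controls. It fell 1.54-fold (log2 fold change -0.62 ± 0.09, adjusted p = 0.000652), and 22.3% of its exon bases lie opposite Gm45507, at 9.16 CPM in NETs-treated and 12.6 CPM in control cells. P4ha1, a collagen prolyl hydroxylase subunit, averaged 83.5 ± 0.662 CPM in NETs-treated cells and 115 ± 2.38 CPM in control cells (log2 fold change -0.46 ± 0.06, adjusted p = 0.000366). Kdm3a, a histone demethylase induced in hypoxia, went the other way at 62.6 ± 2.92 CPM in NETs-treated cells and 50.5 ± 5.31 CPM in control cells (log2 fold change 0.31 ± 0.09, adjusted p = 0.0217), a call that failed with library size scaling, and when control replicate 1 or NETs-treated replicate 2 was dropped (adjusted p from 0.0511 to 0.0720). Bnip3l, the paralogue of Bnip3, averaged 178 ± 17.5 CPM in NETs-treated cells and 172 ± 7.495 CPM in control cells (adjusted p = 0.613). P4ha2, a second collagen prolyl hydroxylase subunit, was low at 1.66 ± 0.399 CPM in NETs-treated cells and 1.35 ± 0.149 CPM in control cells (adjusted p = 0.461).

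Set side by side, the glucose-to-pyruvate steps had 9 of 15 tested genes lower and 1 higher, with a median log2 fold change of -0.48. The hypoxia targets outside glycolysis had 4 of 7 lower and 1 higher, with a median of -0.46. Egln3 (log2 fold change -1.43) and Pdk1 (-1.68), also HIF-1 targets, were not among these 7. They were counted under oxygen sensing and the fate of pyruvate. In comparison, 30.9% of tested genes averaging 10 CPM or more fell and 33.4% rose. With genes assigned in this way, the 15 steps and these 7 targets differed little in these counts and medians. Each held both large falls and genes near 0. The range was from -1.85 to 0.69 among the steps and from -2.10 to 0.31 among the targets. No test was made of the difference between them. Hk2, also a HIF-1 target, was counted among the steps. So was the Gapdh identifier, which holds no more than 0.963% of the reads on Gapdh and its copies. The 36 other tested HIF-1 targets, described below, had 15 lower and 12 higher, with a median of -0.07. The likeness to the steps was thus not seen on that wider list.

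Promoter sequences are shown for 3 HIF-1 targets that fell strongly and for Slc2a1, which rose. They let matches to the core of the HIF-binding element be seen, and the genes were chosen after their values were known. The sequences are RefSeq promoter windows of GRCm38.p6, 300 bases each from 250 before to 50 after the annotated start. Capitals mark that core, ACGTG or GCGTG, on either strand, overlaps included.
Ankrd37 promoter, chr8:45999801-46000100, minus strand: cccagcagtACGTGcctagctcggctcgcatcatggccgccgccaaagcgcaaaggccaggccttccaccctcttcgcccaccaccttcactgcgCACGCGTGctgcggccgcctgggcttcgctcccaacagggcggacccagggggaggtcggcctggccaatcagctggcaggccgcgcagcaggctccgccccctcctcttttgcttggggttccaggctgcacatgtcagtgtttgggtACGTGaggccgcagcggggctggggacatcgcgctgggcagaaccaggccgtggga
Pdk1 promoter, chr2:71872974-71873273, plus strand: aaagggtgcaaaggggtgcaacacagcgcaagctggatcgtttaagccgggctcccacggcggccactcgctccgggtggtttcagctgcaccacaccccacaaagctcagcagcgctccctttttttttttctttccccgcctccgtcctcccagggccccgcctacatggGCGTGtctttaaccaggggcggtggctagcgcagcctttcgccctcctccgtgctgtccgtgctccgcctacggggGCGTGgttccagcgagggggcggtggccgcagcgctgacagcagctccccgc
Egln3 promoter, chr12:54203825-54204124, minus strand: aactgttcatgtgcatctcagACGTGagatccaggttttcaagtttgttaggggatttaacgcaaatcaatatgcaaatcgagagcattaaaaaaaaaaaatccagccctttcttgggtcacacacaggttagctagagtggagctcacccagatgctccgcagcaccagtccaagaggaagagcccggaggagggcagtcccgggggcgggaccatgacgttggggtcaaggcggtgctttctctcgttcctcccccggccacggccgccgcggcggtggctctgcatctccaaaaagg
Slc2a1 promoter, chr4:119108495-119108794, plus strand: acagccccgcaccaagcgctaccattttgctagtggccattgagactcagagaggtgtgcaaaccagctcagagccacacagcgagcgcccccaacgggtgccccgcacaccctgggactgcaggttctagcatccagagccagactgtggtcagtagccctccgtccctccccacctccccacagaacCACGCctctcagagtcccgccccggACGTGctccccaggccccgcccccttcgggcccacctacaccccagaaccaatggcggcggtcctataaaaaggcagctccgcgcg
The Ankrd37 window holds 4 matches, that of Pdk1 2, that of Egln3 1 and that of Slc2a1 2; for Pdk1 the window with the most matches of 2 is shown. Of 41 members with a promoter entry 38 had at least 1 match (92.7%), among them all 6 called higher, 18 of 20 called lower and 12 of 12 tested but not called. By the same count per gene, 66.5% of the 10150 tested genes with an entry and 46.7% of all 27025 genes with one held a match. Counted per window, the share was 79.7% of the 59 windows of members and 43.8% of all 32851. The latter covers windows of all genes, tested or not, and no share per window was computed for tested genes alone. Every member with an entry that rose or was tested but not called held a match, so those that fell could not hold one more often. No conclusion on direction is drawn from these shares. A match describes letters in the window and not a bound site.

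The wider pathways, taken from lists of related genes that hold no member, showed both directions. For comparison with the counts here, 27.2% of all tested genes fell and 25.5% rose. Of those averaging 10 CPM or more, 30.9% fell and 33.4% rose. In the lists below, 11 of 17 tested hexose genes, 10 of 10 of pyruvate entry and 4 of 7 pentose phosphate genes reached that level. Of 27 other glycolysis and hexose genes 17 were tested, with 8 lower and 3 higher and a median log2 fold change of -0.27. Gbe1, the glycogen branching enzyme, fell, with means of 31.5 ± 1.21 CPM in NETs-treated cells and 104 ± 2.61 CPM in control cells (log2 fold change -1.72 ± 0.07, adjusted p = 6.57e-07). Slc2a9, a urate and hexose carrier, and Eno3, the muscle enolase, also fell (log2 fold change -1.49 ± 0.12 and -1.04 ± 0.11). Pgam2, the muscle phosphoglycerate mutase, and Pgm2, a phosphopentomutase, rose, Pgam2 at the low level of 3.74 ± 1.10 CPM in NETs-treated cells and 0.690 ± 0.111 CPM in control cells (log2 fold change 2.43 ± 0.32 and 0.51 ± 0.09). Of 10 tested genes of pyruvate entry into mitochondria 4 fell and 2 rose. The falls were led by Pcx, the pyruvate carboxylase (log2 fold change -1.45 ± 0.10, adjusted p = 8.65e-06), and Dlat, a core subunit of pyruvate dehydrogenase (log2 fold change -0.86 ± 0.09, adjusted p = 6.97e-05), and the rises were Pdp2, a pyruvate dehydrogenase phosphatase (log2 fold change 0.52 ± 0.10), and Dld, a subunit shared with other dehydrogenase complexes (log2 fold change 0.48 ± 0.09). Of 7 other tested pentose phosphate genes 4 fell, namely Rbks, H6pd, Prps1 and Prps2, with log2 fold changes from -0.91 to -0.64.

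Of 15 other tested HIF regulators 7 rose (46.7%) and 5 fell (33.3%), with a median of -0.10. Of tested genes averaging 10 CPM or more, 33.4% rose and 30.9% fell. Vhl, the ligase subunit that binds hydroxylated HIF alpha, had 43.2, 44.9 and 45.8 CPM in NETs-treated cells and 20.7, 17.8 and 18.9 CPM in control cells. It rose 2.33-fold without overlap (log2 fold change 1.22 ± 0.09, adjusted p = 1.17e-05). Cul2, a scaffold of the same ligase, rose by less (log2 fold change 0.39 ± 0.11, adjusted p = 0.0162). Cited2, an inhibitor of HIF-1 transactivation, fell (log2 fold change -0.89 ± 0.07, adjusted p = 1.88e-05), as did Siah2, a ligase for the prolyl hydroxylases (log2 fold change -0.62 ± 0.16, adjusted p = 0.0116). Of 36 other tested HIF-1 targets 15 fell (41.7%) and 12 rose (33.3%), with a median of -0.07, near that of all tested genes. Hilpda, which promotes lipid droplets, had 568, 644 and 822 CPM after NETs and 106, 101 and 95.1 CPM without them. It rose 6.73-fold (log2 fold change 2.75 ± 0.13, adjusted p = 1.40e-06), and Rora, a nuclear receptor, rose 2.91-fold (log2 fold change 1.54 ± 0.12, adjusted p = 1.41e-05). Ddit3, which encodes the stress factor CHOP, fell most on this list, and its place among HIF-1 targets was not tested. The more abundant of its 2 identifiers had 5.62, 3.89 and 4.93 CPM with NETs, against 139.7, 125 and 133 CPM in the controls. Its groups were 27.5-fold apart (log2 fold change -4.78 ± 0.14, adjusted p = 1.47e-07). Stc2, a secreted glycoprotein, and Bhlhe41, a transcriptional repressor, also fell (log2 fold change -2.86 ± 0.15 and -2.42 ± 0.13).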

How the data were processed

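The libraries were strand-specific RNA-seq libraries of total RNA, per the labels' protocols. The authors deposited 1 table of raw read counts per gene, normalised counts (a signal; on testing, each equals the count over a size factor constant within a sample), log2 fold changes and p-values, per the file headers. The submitters' processing notes name HISAT2, DESeq2, rn6 and mm10, with no roles. The counting program and its strand setting were not stated, and 37 mitochondrial genes are listed at 0. Raw counts were tested with edgeR 4.0.16 in R 4.3.3 (quasi-likelihood, two-sided, TMM, minimum count 10, minimum total 15, Benjamini-Hochberg threshold 0.05), without covariates, and the pipeline was tested on simulated data. Other fits used DESeq2 1.42.0. Coordinates and GC content came from GENCODE M21 (GRCm38), promoters from RefSeq GRCm38.p6. Near-identical copies were found with blastn 2.17.0 at 95% identity over 200 bases. GC correction used a lowess offset (span 0.3) on each library's departure from the mean of all libraries, and so also removed differences between groups along GC content. Zero-count limits reflect counting error alone, since PCR copies could not be told from separate molecules. Library pairs of a group differed by more than sampling noise. Members called at 1.5-fold or more are given per library, others by means. From each wider list, up to 4 called genes with the largest change and up to 2 against the majority are named. Slc2a1, Aldoa, Gapdh and G6pdx are given per library too, chosen after their values were seen. Members and lists were chosen with earlier results of these data known. The summed level of the microglia markers is not reported here. Whether replicate numbers pair the samples was not settled.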

Additional observations from a re-analysis of the deposited data

How the results depend on the processing

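Of the 28 called members, 23 (5 of 6 higher, 18 of 22 lower) kept their call in 16 alternatives, of which the addition of copy reads, alone and with GC correction, was chosen after seeing the data. Of the 14 tested members without a call, 2 stayed the same in every alternative. The others passed the test or turned sign in at least 1 of them. Leaving out 1 library gave 5 to 8 members higher and 19 to 23 lower, and 3277 to 4096 genes higher and 3458 to 4371 lower. The replicate numbers gave same-number correlations of 0.21, 0.03 and 0.08 between the groups, against -0.14 to 0.08 for different numbers. Whether the numbers pair the samples was not settled. With the replicate number as a block 7 members were higher and 22 lower. GC correction raised the members higher to 11, with or without copy reads. Adding copy reads without GC correction gave 6 members higher and 23 lower. The median log2 fold change became -0.13 for all members, -0.36 for the glucose-to-pyruvate steps and -0.24 for oxygen sensing under GC correction, -0.56 for the steps and -0.54 for the hypoxia targets with scaling by library size, and -0.43 for the targets at a minimum of 1 CPM. Leaving out a library gave -0.59 to -0.42 for the steps and 0.16 to 0.32 for the pentose phosphate enzymes. Signs turned for 8 members, none of them called in the first fit. With GC correction the values were 0.010 for Gapdh, 0.14 for Eno1 (0.14 with copies), 0.017 for Pkm (0.021 with copies) and -0.082 for Bnip3l (-0.11 with copies). With scaling by library size they were -0.041 for Slc16a3 and -0.020 for Bnip3l. Leaving out a library gave -0.999 to 0.058 for Slc2a3, -0.31 to 0.18 for Gapdh, -0.0043 to 0.33 for Slc16a1, -0.021 to 0.12 for Slc16a3, -0.12 to 0.090 for Pdk3 and -0.013 to 0.14 for Bnip3l. Counted as reads rather than per kilobase, the NETs-treated minus control share was 1.12 points for Hk2, 1.18 for Aldoa, 12.4 for Slc2a1, -12.3 for Slc2a6 and -8.42 for Pdk1. The cause of these shifts was not tested. Counts of Slc2a3 and P4ha2 were low, which limits what could be detected for them.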

Other observations

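The second Aldoa identifier was low in every library, with 1.22, 0.748 and 0.511 CPM after NETs and 1.302, 1.88 and 1.67 CPM without them, and it did not pass the test (edgeR, adjusted p = 0.0761). Pgls shares 20.6% of its exon bases with Fam129c on the same strand, which had 0.367 CPM in NETs-treated and 1.12 CPM in control cells. Pkm shares 15.3% with Gm49759 on the same strand, at 89.6 CPM in NETs-treated and 75.7 CPM in control cells. G6pdx has 13.6% of its exon bases opposite Ikbkg, at 89.8 CPM in NETs-treated and 74.0 CPM in control cells.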
